A study of Mus musculus with 17 samples.

Results

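Growth hormone reaches the liver through its receptor and the transcription factor STAT5, and 10 genes of that route were followed here in mouse liver. They encode the growth hormone receptor (Ghr), the kinase bound to it (Jak2), the 2 forms of STAT5 (Stat5a and Stat5b), the feedback inhibitors Socs2, Cish and Socs3, the secreted outputs Igf1 and Igfals, and the related prolactin receptor (Prlr). The genes were chosen by symbol for their role in the pathway, with earlier results of these data known. The 10 symbols each matched 1 of the 48440 gene rows of the deposited table. All 10 had a value above 0 in every library and passed the filter of a mean of at least 10 normalized counts.

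The 17 libraries hold polyadenylated liver RNA of 3 groups. The first is miR-29 transgenic mice aged 2 months (6 libraries, of which 1 is female), the second is wild-type B6 mice aged 2 years (5 libraries, of which 2 are female), and the third is wild-type B6 mice aged 2 months (6 libraries, of which 2 are female). The labels do not say which promoter or cell type drives the transgene, which miR-29 gene it carries, or the strain background of the transgenic mice. The miR-29 precursor genes, 4 in all, are listed at 0 in every library, so the product of the transgene was not measured here. No treatment is named for any group. The labels do not state that each library came from a separate animal, so p-values measure the spread between these libraries.

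Growth hormone is released by the pituitary in pulses that differ between male and female mice. When it binds its receptor on hepatocytes, JAK2 phosphorylates STAT5, which moves to the nucleus and switches on genes such as Igf1, Igfals, Socs2 and Cish. The SOCS proteins and CIS then damp the receptor's signal, while circulating IGF1, held in a large complex by the IGFALS protein, carries much of the growth effect to other tissues.

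Batch A (10 libraries) and batch B (7 libraries, all male) differ in library kit and sequencing site, per the labels' protocols. Library numbers 1 to 3 of the transgenic and 2-year groups and 1 to 4 of the 2-month wild-type group belong to batch A. Summed over genes, each library held between 28077001 and 44543936 normalized counts, of which its 10 highest genes took 17.8% to 27.5%. Read depth is unknown, so no counting interval was computed. All 7 hepatocyte markers were detected. Their summed level ran from 1561340 to 5528150 in transgenic livers, from 2461560 to 3910960 in old wild-type livers and from 2625560 to 4188730 in young wild-type livers, and 0 of 7 passed the test in any comparison. The transgenic female was the lowest of all libraries in that sum. All 8 neutrophil markers rose in transgenic livers, with summed levels of 444.4 to 44205 in transgenic, 97.5 to 2053 in old wild-type and 30.1 to 482.2 in young wild-type livers, and 4 of 6 erythroid markers rose as well. These are calls against young wild type, where the test described below called 2.89% of all genes as higher and 3.83% as lower. Of Kupffer cell and macrophage markers 1 of 7 rose, as did 1 of 5 B and plasma cell and 1 of 5 sinusoidal endothelial markers. Of 5 stellate cell and fibroblast markers 1 fell, and none of the T and NK cell or cholangiocyte markers passed. The part of other cells in the results on the pathway was not tested. In bulk tissue, fewer cells of a type and less RNA per cell cannot be told apart.

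The message for the growth hormone receptor fell in transgenic livers, and so did the messages of both secreted outputs, Igf1 and Igfals. No member passed the test as higher. The test was limma on log2(value + 1) with terms for batch and sex, and a gene was called at a Benjamini-Hochberg adjusted p under 0.05 over 14588 genes. In these terms 3 of 10 members fell and 0 rose, where 6.71% of all genes tested were called, 2.89% as higher and 3.83% as lower. At an unadjusted p under 0.05, 4 of 10 members passed, against 21.2% of all genes. The median log2 fold change was 0.07 over the 10 members and 0.01 over all genes. Scaling every library to an equal total shifted the median of all genes by 0.13 and gave 513 higher and 401 lower calls in place of 421 and 558; 3 members again fell and 1, Socs3, rose. Without the transgenic female 2 of 10 members fell, Ghr and Igfals, and 0 rose, in a fit that called 5.06% of all genes.

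Ghr (chr15:3317760-3583492, minus strand; GRCm38, the same assembly as the authors' mm10) lay between 1965 and 6577 normalized counts in the 6 transgenic livers with a median of 4609, against 9411 to 14802 with a median of 12757 in the 6 young wild-type livers. Every transgenic liver was below every young wild-type liver. The mean was 4542 ± 1614 in transgenic and 12493 ± 1787 in young wild-type livers (SD, n = 6 each). Adjusted for batch and sex, the log2 fold change was -1.55 ± 0.28 (SE, limma adjusted p = 0.00249), which is 2.93-fold lower. Its 95% confidence interval ran from -2.14 to -0.97.

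The Ghr groups were also apart within each batch. In batch A the 3 transgenic livers had 5043, 3805 and 1965 normalized counts, against 12691 to 14802 in 4 young wild-type livers, and the log2 fold change was -2.05 ± 0.28 (limma adjusted p = 0.0104). In batch B the transgenic livers had 6577, 5687 and 4175 normalized counts, against 11922 and 9411 in young wild-type livers. There the log2 fold change was -0.98 ± 0.35 and missed the threshold (limma adjusted p = 0.182). The difference of the fold changes between batches, batch B minus batch A, was 1.11 ± 0.41 (limma interaction adjusted p = 0.214). The lowest Ghr of all 17 libraries was in the transgenic female, and without that library the log2 fold change was -1.21 ± 0.23 (limma adjusted p = 0.00434). The Ghr gene also makes a short transcript for the soluble growth hormone binding protein, and values summed per gene do not separate them.

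Igf1 (chr10:87858265-87937042, plus strand) encodes insulin-like growth factor 1, the main hormone that liver releases in response to growth hormone. It ran from 5403 to 10926 normalized counts in transgenic livers with a median of 8555, against 11388 to 18351 with a median of 16744 in young wild-type livers. The groups did not overlap, although the lowest young wild-type liver, library 1, lay just above the highest transgenic one. The log2 fold change was -0.92 ± 0.21 (SE, limma adjusted p = 0.0160), which is 1.89-fold lower. Without the transgenic female it was -0.78 ± 0.22 and no longer passed (limma adjusted p = 0.0546). In males alone it was -0.79 ± 0.26 (limma adjusted p = 0.0990), in batch A -0.92 ± 0.25 (limma adjusted p = 0.0887) and in batch B -1.01 ± 0.32 (limma adjusted p = 0.147).

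Igfals (chr17:24865997-24882010, plus strand) encodes the acid-labile subunit that keeps IGF1 in the blood. It ran from 173.6 to 1337 normalized counts in transgenic livers with a median of 544.4, against 1511 to 2617 with a median of 1889 in young wild-type livers. Again every transgenic liver was below every young wild-type liver. The log2 fold change was -1.92 ± 0.42 (SE, limma adjusted p = 0.0103), which is 3.78-fold lower. The transgenic female was the lowest of all 17 libraries. Without it the log2 fold change was -1.45 ± 0.37 (limma adjusted p = 0.0342), and in males alone it was -1.57 ± 0.42, just short of the threshold (limma adjusted p = 0.0518). Batch B alone gave -1.25 ± 0.43 (limma adjusted p = 0.168).

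Ghr, Igf1 and Igfals were the 3 members whose groups did not overlap over all libraries, where 1.84% of all genes lay lower without overlap and 1.11% higher. They were also apart among males (5 transgenic against 4 young wild-type livers, background 3.44% lower), within batch A (3 against 4, background 9.01% lower) and within batch B (3 against 2, background 22.4% lower).

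**Figure D1:**
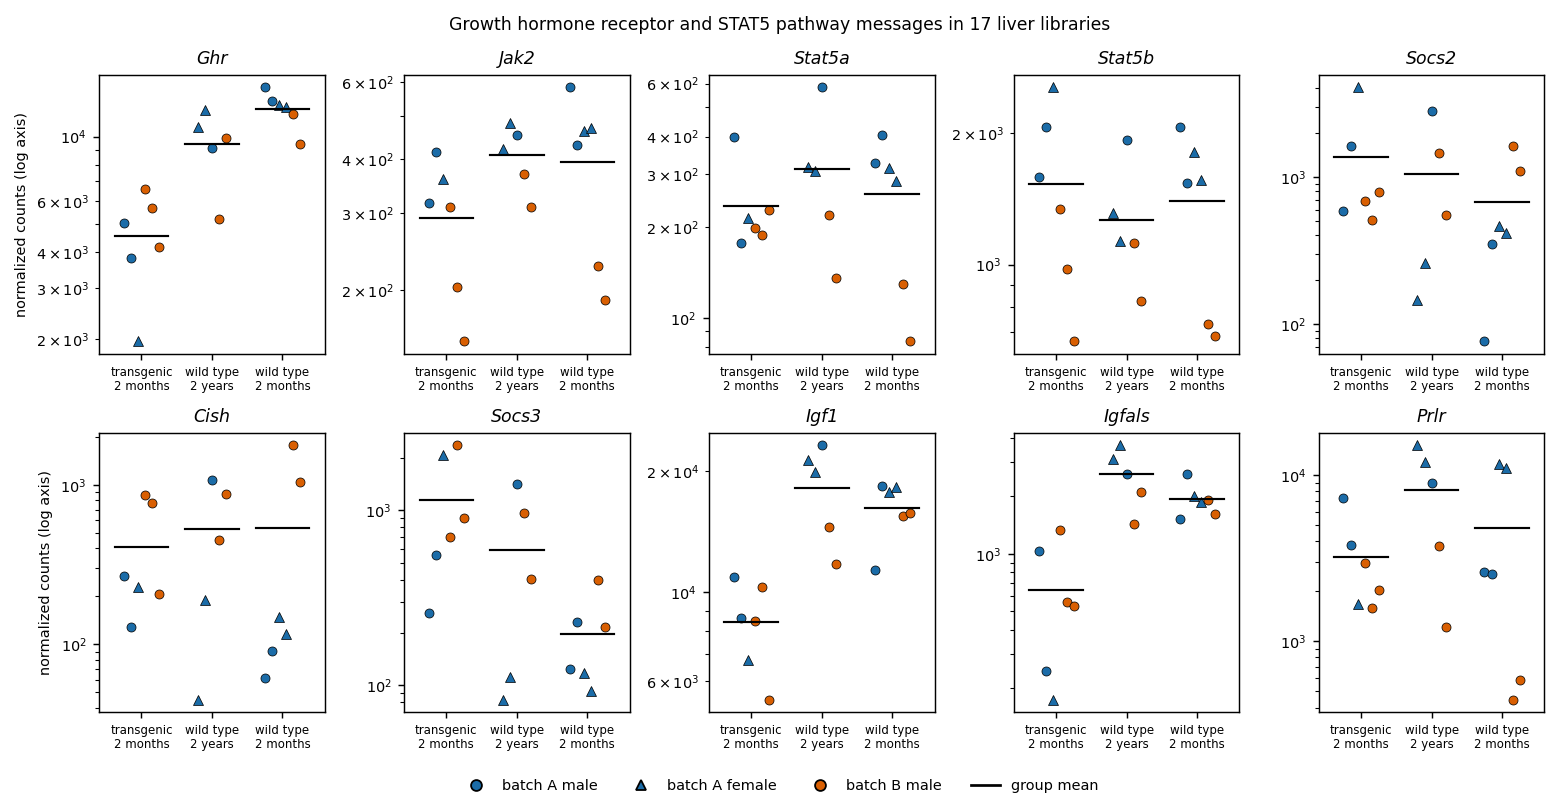
Normalized counts (log axis) of the 10 genes in every library, with transgenic livers at 2 months on the left, wild type at 2 years in the middle and wild type at 2 months on the right. Blue marks batch A, orange batch B, circles males, triangles females and bars group means; Ghr, Igf1 and Igfals are the panels in which no transgenic liver reaches the range of young wild type.

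Igf1 is also the 1 member of 10 whose longest annotated 3′ UTR holds a match to the miR-29 seed. The mature miR-29 sequences are shown because the transgene is named for this family. Capitals mark the seed, bases 2 to 8, which the 3 arms share (RefSeq, GRCm38.p6).
miR-29a-3p: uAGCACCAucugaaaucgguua
miR-29b-3p: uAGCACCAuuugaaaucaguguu
miR-29c-3p: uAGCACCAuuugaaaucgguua
The seed match TGGTGCT was searched on the sense strand of each longest 3′ UTR of GENCODE M21. It occurs at 2 places in the 6308-base UTR of Igf1, at UTR positions 937 and 3571, each followed by an A. Both sites are printed 5′ to 3′ from the annotated transcript, with the match in capitals.
Igf1 site at chr10:87931656-87931685, plus strand: tgttttttagtacaaTGGTGCTattttgta
Igf1 site at chr10:87934290-87934319, plus strand: ccagctacgccaatgTGGTGCTattgtttc
The match was present in 2758 of 20848 genes with a 3′ UTR of at least 30 bases (13.2%), and in 30.4% of the 5380 genes whose UTR reached 2000 bases. The UTRs of Ghr (1982 bases) and Igfals (262 bases) hold no match to these letters. A match describes the sequence and is not a measured site of binding.

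**Figure D2:**
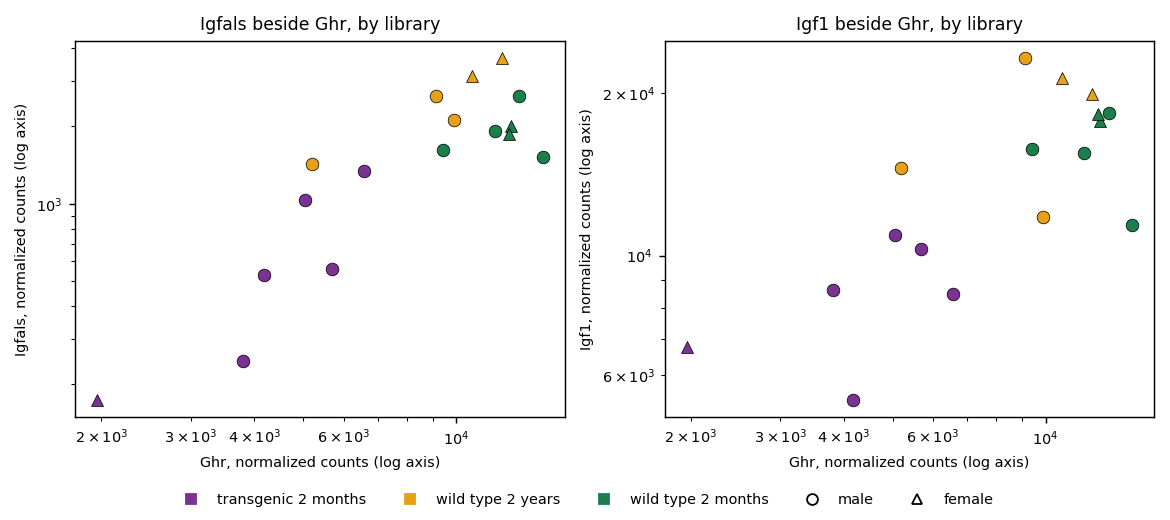
Igfals (left) and Igf1 (right) plotted against Ghr in normalized counts, all axes on a log scale, 1 point per library, coloured by group with circles for males and triangles for females. The 6 transgenic livers fill the lower left of both panels, with Ghr at or below 6577 and Igf1 at or below 10926.

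The kinase and both STAT5 messages did not pass the test between transgenic and young wild-type livers. Jak2 (chr19:29251828-29313080), the kinase that the receptor activates, lay between 152.8 and 415.0 normalized counts in transgenic livers and between 189.9 and 583.2 in young wild-type livers. Its log2 fold change was -0.27 ± 0.20 (limma adjusted p = 0.504). In batch A alone the 3 transgenic livers were all below the 4 young wild-type livers (9.01% of all genes were lower without overlap), at -0.43 ± 0.19 (limma adjusted p = 0.245), while batch B gave 0.04 ± 0.36 (limma adjusted p = 0.967).

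Stat5b (chr11:100780731-100850724, minus strand), the form that dominates in liver, lay between 667.8 and 2543 normalized counts in transgenic livers and between 687.7 and 2067 in young wild-type livers. The groups overlapped throughout, and the log2 fold change was 0.27 ± 0.22 with a 95% confidence interval of -0.19 to 0.73 (limma adjusted p = 0.526). Stat5a (chr11:100859351-100885169, plus strand) ranged from 176.8 to 399.7 normalized counts in transgenic and from 83.4 to 404.6 in young wild-type livers, at a fitted log2 fold change of 0.14 ± 0.28 (limma adjusted p = 0.839). Its fitted change was -0.49 ± 0.30 in batch A and 0.97 ± 0.37 in batch B (limma adjusted p = 0.388 and 0.199), and the difference between batches did not pass (1.43 ± 0.46, limma interaction adjusted p = 0.167). Stat5a and Stat5b are close paralogs, which the authors' counting could split unevenly. Stat5a shares 72 exonic bases with Stat3 on the opposite strand, and the strand setting of the authors' counting is not given in the sources used here.

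For Ghr, Jak2, Stat5a, Stat5b and Prlr the 4 young wild-type livers of batch A were all above the 2 of batch B. For Socs2 and Cish they were all below, with Cish at 61.9 to 147.9 normalized counts in batch A and 1767 and 1047 in batch B. The share of all genes that part in this way was not computed, so the split cannot be read as particular to these members. Stat5b, for example, read 1533 to 2067 normalized counts in batch A and 687.7 and 731.4 in batch B. The pooled fits carry terms for batch and sex.

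The feedback inhibitors Socs2, Cish and Socs3 varied widely from library to library. Socs2 (chr10:95385362-95417180, minus strand), a STAT5 target whose protein marks the growth hormone receptor for removal, ran from 508.7 to 4063 normalized counts in transgenic livers with a median of 738.1, against 76.3 to 1623 with a median of 436.4 in young wild-type livers. The pooled log2 fold change was 1.04 ± 0.78 (limma adjusted p = 0.498), and without the transgenic female it was 0.25 ± 0.74 (limma adjusted p = 0.914). In batch A the transgenic livers had 586.2, 1616 and 4063 normalized counts, all above the 76.3, 349.9, 460.4 and 412.4 of young wild type. In batch B they had 687.7, 508.7 and 788.6, all below the 1623 and 1103 of young wild type. Of all genes 8.52% were higher without overlap in batch A, and 22.4% were lower without overlap in batch B.

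Fitted apart, Socs2 gave a log2 fold change of 2.56 ± 1.13 in batch A (limma adjusted p = 0.248) and -1.04 ± 0.44 in batch B (limma adjusted p = 0.235). The difference, batch B minus batch A, was -3.86 ± 0.74 and passed (limma interaction adjusted p = 0.0410), where 0.658% of all genes were called, and 1 of 10 members was. That call was lost without the filter on low values and with quantile normalization. At an unadjusted limma interaction p under 0.05 for transgene by batch, 5 of 10 members passed, against 2341 of 14588 genes. They were Ghr, Prlr, Stat5a, Cish and Socs2. Batch B holds males only, so batch and sex cannot be told apart for the transgenic female, which had the highest Socs2 of all 17 libraries.

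Cish (chr9:107296026-107302784, plus strand) encodes CIS, another STAT5-induced inhibitor of cytokine receptors. It had 268.0, 128.9 and 227.4 normalized counts in transgenic livers of batch A, against 61.9, 91.1, 147.9 and 115.6 in young wild type. In batch B the transgenic livers had 859.7, 767.1 and 208.0, all below the 1767 and 1047 of young wild type, where 22.4% of all genes were lower without overlap. The pooled log2 fold change was 0.01 ± 0.64 (limma adjusted p = 0.998), and the difference between batches was -2.49 ± 0.73 (limma interaction adjusted p = 0.140). Exons of Cish overlap the opposite-strand genes Gm17040 (261 bases) and Gm17041 (479 bases), whose reads an unstranded count could not separate.

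Socs3 (chr11:117966079-117970047, minus strand) is induced mainly by STAT3 downstream of IL-6 and also restrains the growth hormone receptor. It ran from 259.0 to 2352 normalized counts in transgenic livers with a median of 802.4, against 92.6 to 402.1 with a median of 169.9 in young wild-type livers. Within each batch every transgenic liver was above every young wild-type liver, where 8.52% of all genes were higher without overlap in batch A and 19.8% in batch B. Over all libraries the groups overlapped, and the log2 fold change of 2.08 ± 0.61 fell just short of the threshold (limma adjusted p = 0.0512). The authors' deposited table, which calls 14.1% of its genes, gives 2.35 with an adjusted p of 8.55e-06. Without the transgenic female, at 2079 normalized counts, the log2 fold change was 1.35 ± 0.52 (limma adjusted p = 0.174).

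**Figure D3:**
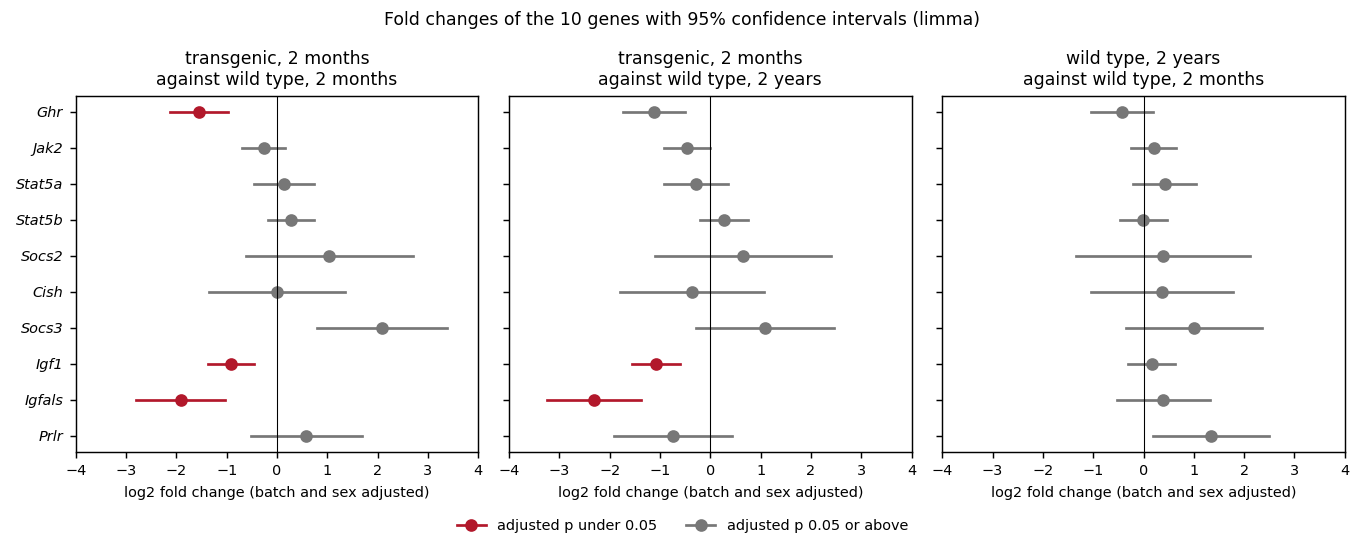
Log2 fold changes (x axis) of the 10 genes with 95% confidence intervals from limma, adjusted for batch and sex, for transgenic against young wild type (left), transgenic against old wild type (middle) and old against young wild type (right). Red marks an adjusted p under 0.05, which Ghr, Igf1 and Igfals reach on the left, Igf1 and Igfals in the middle and no member on the right.

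Prlr (chr15:10177238-10349180, plus strand), the prolactin receptor, signals through the same kinase and STAT5 and is known as a female-biased gene in mouse liver. The transgenic female had 1670.4 normalized counts, below the 11703 and 10999 of the 2 young wild-type females. Transgenic males had 7256 and 3782 in batch A and 2957, 1582 and 2034 in batch B, against 2612 and 2538 in batch A and 446.7 and 583.0 in batch B among young wild-type males. Within each batch every transgenic male was above every young wild-type male, which 18.5% of all genes also showed among the 2 and 2 males of batch A and 19.8% among the 3 and 2 of batch B. The ranges overlapped across batches.

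The pooled log2 fold change of Prlr was 0.58 ± 0.52 (limma adjusted p = 0.582). In males alone it was 1.59 ± 0.35 and passed (limma adjusted p = 0.0199), in a fit that called 5.05% of all genes. The effect in males minus that in females was 4.35 ± 0.57 on the log2 scale (limma interaction adjusted p = 0.00610), where 1.33% of all genes were called and 1 of 10 members was. The female side of that difference rests on 1 transgenic library, so it has no replicate of its own. Prlr shares 203 exonic bases with Gm21973 on the same strand.

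**Figure D4:**
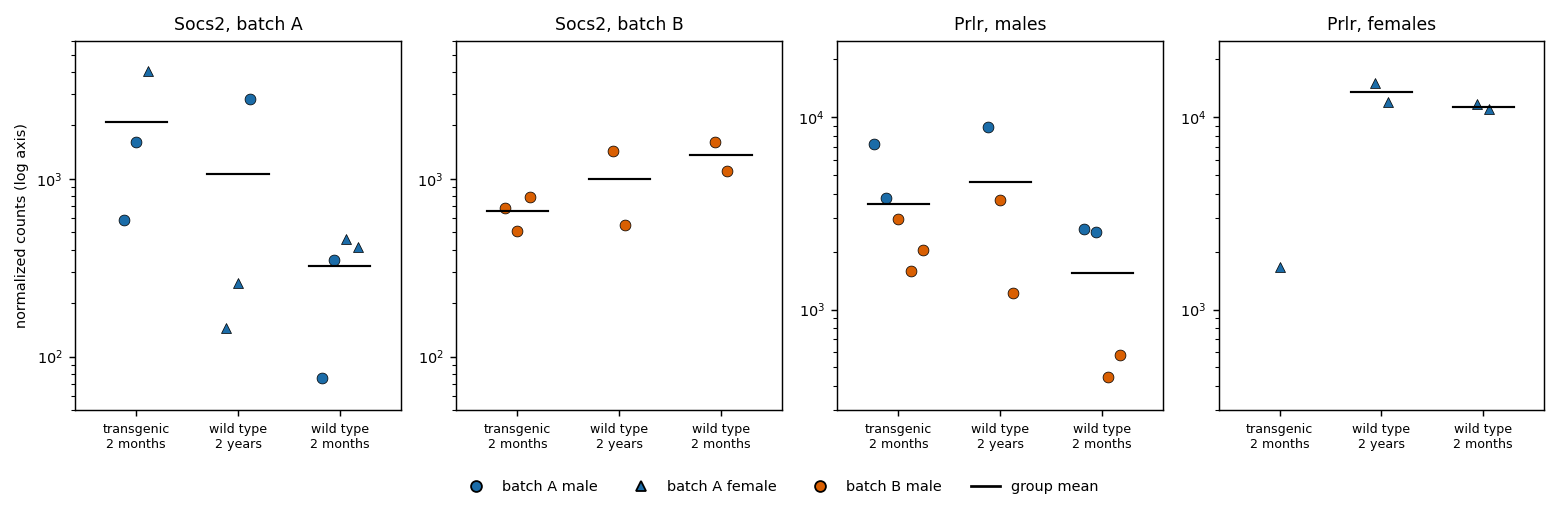
Normalized counts (log axis) of Socs2 split by batch (the 2 left panels) and of Prlr split by sex (the 2 right panels), with transgenic livers left of old and young wild type. Points are libraries and bars are group means where a group has more than 1 library; transgenic livers stand above young wild type for Socs2 in batch A and below it in batch B.

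Age was examined as wild type at 2 years against wild type at 2 months. No member passed the test, where 0.144% of all genes were called (21 of 14588), 14 higher (0.096%) and 7 lower (0.048%). One member, Prlr, had an unadjusted p under 0.05, against 8.73% of all genes. The median log2 fold change was 0.38 over the 10 members and -0.0027 over all genes.

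Ghr read 10751, 12321, 9120.1, 5199.6 and 9886 normalized counts in the 5 old livers, against 9411 to 14802 with a median of 12757 in young wild-type livers. In batch A the 3 old livers, at 9120.1 to 12321, were all below the 4 young ones, at 12691 to 14802, where 2.81% of all genes were lower without overlap. In batch B the 2 groups overlapped. The log2 fold change was -0.43 ± 0.29 with a 95% confidence interval of -1.04 to 0.18 (limma adjusted p = 0.650).

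Igf1 in the old livers read 21335, 19925, 23219, 14528 and 11770.1 normalized counts, against 11388 to 18351 in young wild-type livers. The 3 old livers of batch A lay above all 4 young ones (3.25% of all genes were higher without overlap there) and the 2 old livers of batch B lay below both young ones (32.8% lower). The pooled log2 fold change was 0.16 ± 0.22 (limma adjusted p = 0.820), and the difference between batches, batch B minus batch A, was -0.65 ± 0.36 (limma interaction adjusted p = 0.278). Igfals read 3131, 3674, 2616, 1431 and 2112 normalized counts in old livers, against 1511 to 2617 in young ones, at a fitted log2 fold change of 0.39 ± 0.44 (limma adjusted p = 0.772).

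Prlr gave the largest fitted change with age among the members, at 1.33 ± 0.55 on the log2 scale (limma adjusted p = 0.535). The authors' deposited table, which calls 1.77% of its genes, gives 1.40 with an adjusted p of 0.0197. Old females had 15067 and 11959 normalized counts, against 11703 and 10999 in young females. Old males had 8933 in batch A and 3722 and 1213 in batch B, against 2612 and 2538 in batch A and 446.7 and 583.0 in batch B among young males. Each old male was thus above the young males of its own batch, where in batch B 29.1% of all genes were higher without overlap. In batch A this rests on 1 old male, and the share of all genes that part in this way was not computed. In males alone the log2 fold change was 1.89 ± 0.40 (limma adjusted p = 0.0653), and the difference between males and females did not pass (1.71 ± 0.53, limma interaction adjusted p = 0.143).

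Socs3 read 82.9, 111.4, 1410.0, 959.7 and 407.7 normalized counts in old livers, against 92.6 to 402.1 in young wild-type livers. Both old females were low, while all 3 old males were above all 4 young males, where 3.86% of all genes were higher without overlap. The log2 fold change was 1.004 ± 0.638 (limma adjusted p = 0.638), and without the old male of batch A it was 0.25 ± 0.59 (limma adjusted p = 0.915). Socs2 read 145.5, 260.3, 2813, 1444 and 548.7 normalized counts in old livers, against 76.3 to 1623 in young ones, and Cish read 45.1, 190.3, 1073, 452.9 and 879.7, against 61.9 to 1767. Their log2 fold changes were 0.39 ± 0.82 and 0.37 ± 0.67 (limma adjusted p = 0.885 and 0.864), and without the old male of batch A they were -0.50 ± 0.78 and -0.48 ± 0.59 (limma adjusted p = 0.865 and 0.821). That male had the highest Socs2, Cish, Socs3, Stat5a and Igf1 of the 5 old livers, at 2813, 1073, 1410.0, 583.8 and 23219 normalized counts.

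Jak2 in the old livers lay between 309.5 and 483.6 normalized counts, Stat5b between 828.0 and 1928 and Stat5a between 136.0 and 583.8. Each range overlapped that of young wild type. Their log2 fold changes with age were 0.20 ± 0.21, -0.0022 ± 0.22 (0.13 with equal library totals) and 0.42 ± 0.29 (limma adjusted p = 0.755, 0.998 and 0.663). Of the 10 members, 0 passed a test of the age effect by batch, where 1.25% of all genes were called, and 0 passed a test by sex, where 0.00685% were called (limma). At an unadjusted p under 0.05 there were 1 and 3 members in these tests, against 26.4% and 23.1% of all genes.

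Transgenic livers at 2 months were also set against wild-type livers at 2 years, a comparison in which genotype and age differ together. It shares its transgenic libraries with the first comparison and its old libraries with the second, so the 3 sets of fold changes are not independent. Here 2 of 10 members fell and 0 rose, where 2.55% of all genes were called, 0.713% as higher and 1.84% as lower. At an unadjusted p under 0.05, 4 members passed, all lower, against 15.3% of all genes.

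Igf1 ran from 5403 to 10926 normalized counts in transgenic livers, below each of the 5 old livers, at 11770.1 to 23219. The log2 fold change was -1.08 ± 0.23 (limma adjusted p = 0.0166). Igfals ran from 173.6 to 1337 in transgenic livers, below the 1431 to 3674 of old livers, at a fitted log2 fold change of -2.31 ± 0.44 (limma adjusted p = 0.00985). These 2 were the members without overlap, where 1.14% of all genes lay lower without overlap. Ghr ran from 1965 to 6577 in transgenic livers and from 5199.6 to 12321 in old livers, at -1.12 ± 0.29 (limma adjusted p = 0.0507). Neither Igf1 nor Igfals passed in males alone, at -0.92 ± 0.28 and -1.65 ± 0.46 (limma adjusted p = 0.183 and 0.140). Without the transgenic female the log2 fold change of Igf1 was -0.93 ± 0.24 (limma adjusted p = 0.0536), and without the old male of batch A it was -0.97 (limma adjusted p = 0.0609).

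Per kilobase of annotated exon, which allows levels of different genes to be compared, Igf1 and Ghr stood highest in every group. Mean levels in transgenic livers were 850.0 ± 209.8 normalized counts per kilobase for Igf1 and 501.7 ± 178.2 for Ghr (SD, n = 6), against 1633 ± 268 and 1380 ± 197 in young wild type (SD, n = 6). In young wild-type livers Igfals (606.3 ± 123.2), Prlr (313.8 ± 335.9) and Stat5b (252.5 ± 102.5) followed. Cish, Jak2, Socs2, Socs3 and Stat5a lay between 36.1 and 83.9, and the first 4 did not differ beyond their spread. Among transgenic livers Socs3 stood next after these, at 394.8 ± 298.3 normalized counts per kilobase (SD, n = 6).

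The best known direct DNA motif of STAT5 is the palindrome TTCNNNGAA. It was searched in RefSeq promoters (GRCm38.p6) reaching from 250 bases before to 50 bases after each annotated start. The palindrome reads the same on both strands. Of 32851 promoters 8.30% hold it, and 0.457% hold it at least 2 times. Promoters of 9 members were found, and some members have several, such as 3 each for Igfals and Prlr. The shares above are per promoter, so they cannot be set beside a count of genes. At least 1 promoter each of Cish, Socs3, Igfals and Prlr holds a match, and those of Ghr, Jak2, Stat5a, Stat5b and Igf1 hold none of these letters. Windows of 30 bases are shown because these members include one that fell (Igfals) and some that did not pass the test (Cish, Socs3, Prlr), with the motif in capitals and each window on its gene's strand.
Cish, chr9:107296649-107296678, plus strand: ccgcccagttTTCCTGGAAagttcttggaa
Socs3, chr11:117969501-117969530, minus strand: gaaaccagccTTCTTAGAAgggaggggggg
Igfals, chr17:24878163-24878192, plus strand: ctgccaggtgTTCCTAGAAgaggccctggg
Prlr, chr15:10223786-10223815, plus strand: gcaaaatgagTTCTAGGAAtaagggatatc
The centre of the motif lies 5 bases after the start in Cish, where a second match follows at 16, and 150 bases before the start in Socs3. It lies 54 bases before the start in Igfals, where another of its 3 promoters has a match 232 bases before its start, and 106 bases before the start in 1 of 3 Prlr promoters.

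Genes that act beside the members were listed by role, with earlier results of these data known. There were 81 in all, of which 80 passed the filter. Between transgenic and young wild-type livers 16 of 80 rose and 9 fell, against 6.71% of all genes called, and their median log2 fold change was 0.32 against 0.01 over all genes.

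Among other class I cytokine receptors, the family to which the growth hormone receptor belongs, 3 of 14 rose and 1 fell (median 0.50). Lifr, the receptor of leukaemia inhibitory factor, averaged 1977 ± 596 normalized counts in transgenic and 8766 ± 1693 in young wild-type livers (SD, n = 6 each), and fell by 2.10 ± 0.27 on the log2 scale (limma adjusted p = 0.000252). Lepr, the leptin receptor, rose by 3.33 ± 0.81 on the log2 scale, with transgenic livers between 314.3 and 8042 normalized counts and young wild-type livers between 23.3 and 851.9. The oncostatin M receptor Osmr rose by 1.29 ± 0.36, and Csf3r, the receptor of the neutrophil growth factor G-CSF, rose by 2.29 ± 0.59. Csf3r moved with the neutrophil markers given above, and their part in it was not tested. Without the transgenic female Lifr still fell, by 2.05 ± 0.30 (limma adjusted p = 0.000775), whereas Lepr, Csf3r and Osmr, at 2.88 ± 0.88, 2.00 ± 0.65 and 1.19 ± 0.40, no longer passed (limma adjusted p = 0.0758, 0.0967 and 0.112).

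Among the other JAK and STAT genes 1 of 8 rose, the kinase Jak3, by 0.91 ± 0.25 on the log2 scale (limma adjusted p = 0.0379). Of 16 other SOCS genes, phosphatases and inhibitors 2 rose. They were Socs5, by 0.72 ± 0.21, and Ptpn1, by 0.65 ± 0.15 (limma adjusted p = 0.0486 and 0.0164), the phosphatase that removes phosphate from JAK2. Without the transgenic female Ptpn1 passed and Socs5 did not (limma adjusted p = 0.0357 and 0.0637), and in males alone neither did (limma adjusted p = 0.0581 for Ptpn1 and 0.0889 for Socs5). None of 10 adaptors below the receptor, such as Irs1 and Grb2, passed, while 3 had an unadjusted p under 0.05, against 21.2% of all genes. Of 14 liver genes that respond to IL-6 and STAT3, 5 rose and 0 fell (median 1.46). They included the siderophore-binding protein Lcn2, by 4.77 ± 0.97, the acute-phase proteins Orm2, by 4.35 ± 0.96, and Hp, by 1.56 ± 0.43, and Lbp, which binds bacterial lipopolysaccharide, by 1.81 ± 0.49. Lcn2 is also abundant in neutrophils, whose 8 markers all rose.

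Among these lists, the largest differences lay in liver genes known to respond to growth hormone and STAT5 other than the members. Of these 5 of 18 rose and 8 fell, against 6.71% of all genes called. The list was chosen with earlier results of these data known, so its count is a description. The largest falls were those of Slco1a1, an organic anion transporter, Mup20, a urinary pheromone-binding protein, Elovl3, a fatty acid elongase, and Hsd3b5, a steroid dehydrogenase, all known as male-biased in mice. Slco1a1 lay between 19.4 and 81.2 normalized counts in transgenic livers and between 2444 and 25346 in young wild-type livers, at -8.05 ± 0.86 on the log2 scale (limma adjusted p = 5.72e-05). Mup20 gave -7.73 ± 1.15, Elovl3 -7.71 ± 1.09 and Hsd3b5 -7.42 ± 1.10, adjusted for batch and sex (limma adjusted p = 0.000613, 0.000443 and 0.000613). The ranges of Mup20 overlapped, with transgenic livers between 523.3 and 16713 normalized counts and young wild-type livers from 2251 up. Those of Hsd3b5 overlapped as well, at 9.4 to 51.9 in transgenic and 46.0 to 12123 in young wild-type livers. Elovl3 ran from 2.8 to 92.3 and from 218.2 to 34457. Mup20 belongs to a family of near-identical copies, so its own value is uncertain.

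Those that rose included Sult2a1, Cyp2b9, Cyp2b13 and the transcription factor gene Cux2, all known as female-biased in mice and named here after their values were seen. Their log2 fold changes, adjusted for batch and sex, were 6.40 ± 1.37, 5.32 ± 1.25, 5.13 ± 1.18 and 4.83 ± 0.88 (limma adjusted p = 0.00866, 0.0164, 0.0144 and 0.00272). Unadjusted means of Cyp2b9 (3309 in transgenic, 4173 in young wild-type livers) and Cyp2b13 (750 and 1750) went the other way. Those of Sult2a1 (8099 and 4786) and Cux2 (674 and 107) rose. A1bg and Cyp3a41a of the same list, also named afterwards, did not pass, at 1.27 ± 1.48 and 5.15 ± 1.58 (limma adjusted p = 0.690 and 0.0596). Cyp2b9, Cyp2b13 and Sult2a1 have close paralogs that share reads. Males alone, in a fit that called 5.05% of all genes, gave 6 higher and 9 lower of the 18.

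**Figure D5:**
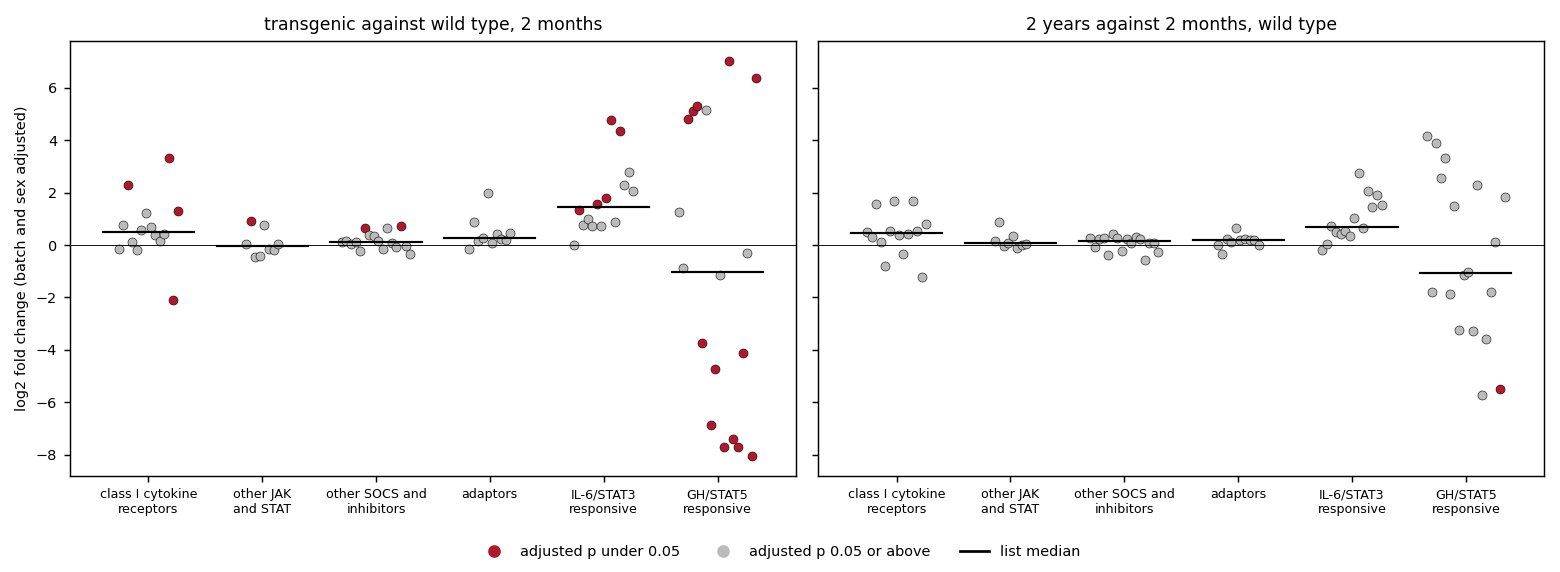
Log2 fold changes (y axis, adjusted for batch and sex) of 80 genes around the receptor, in 6 lists by role, for transgenic against young wild type (left) and old against young wild type (right). Points are genes, red marks an adjusted p under 0.05 and bars are list medians; the growth hormone and STAT5 responsive list spreads widest and reaches down to -8.05 on the left.

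With age 1 of the 80 genes passed and it fell, against 0.144% of all genes. It was Slco1a1, which averaged 1269.6 ± 2596.5 normalized counts in old livers (SD, n = 5) and 11127 ± 8687 in young wild-type livers (SD, n = 6), and its fitted fold change was -5.50 ± 0.90 on the log2 scale (limma adjusted p = 0.0161). The call was lost in males alone. At an unadjusted limma p under 0.05, 20 of the 80 passed with age, against 8.73% of all genes. Of the 18 growth hormone and STAT5 responsive genes 11 did, in both directions, at a list median log2 fold change of -1.08. The lists were chosen with earlier results of these data known, so these counts are a description. Transgenic livers against old wild-type livers gave 1 higher and 1 lower of 80, about the same share as the 2.55% of all genes. They were Cebpd, a transcription factor gene induced by IL-6, at 1.30 ± 0.33 (limma adjusted p = 0.0450), and Cyp7b1, an oxysterol hydroxylase, at -3.59 ± 0.51 (limma adjusted p = 0.00108). The call of Cebpd was lost in males alone and without the transgenic female. At an unadjusted limma p under 0.05 there were 21 of the 80 genes in this comparison, against 15.3% of all genes. Cyp7b1 averaged 215.0 ± 39.6 normalized counts in transgenic livers (SD, n = 6) and 2812 ± 2936 in old livers (SD, n = 5).

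Standardized log2 profiles over the 17 libraries were compared among 10378 genes with a mean of at least 100 normalized counts, by the root mean square difference, where the median gene stood 1.417 from Ghr. The 5 genes closest to Ghr were Slc22a30 (0.287), Pgrmc1 (0.304), Aadac (0.314), Akr1c6 (0.339) and Ces1f (0.355). Of the members, Igfals stood at 0.482 from Ghr and Igf1 at 0.698, while Socs3 and Socs2 stood at 1.860 and 1.808. The 5 genes closest to Socs2 were Rrs1 (0.563), Ldb1 (0.586), Eif4ebp3 (0.590), RP23-234F23.1 (0.601) and Atg16l1 (0.626), with Socs3 at 0.752 and Cish at 0.896 and the median gene at 1.414. The libraries share groups, batches and sexes, so these distances are a description.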

How the data were processed

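Polyadenylated liver RNA of 17 libraries was sequenced. The submitters' processing notes name the mm10 build and, without their roles, the tools STAR (2.5.3a), DESeq2 and Salmon (0.6.0). The deposited expression table holds normalized signal, which the authors call DESeq2 normalized counts. The best-fitting step left 54.9% to 70.0% of a library's low values within 0.1 of a whole read, so whole reads were not recovered. The authors also deposited 2 comparison tables with log2 fold changes, a test score and p-values, per the file headers, corrected for batch and sex per their names. These served as an alternative.

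Genes with a mean of at least 10 were tested as log2(value + 1) with limma 3.58.1 in R 4.3.3, with all libraries, group, batch and sex in 1 model and a trended prior, checked on simulated data. Values on this scale understate changes of low genes. Apart from examples and genes named after their values were seen, the pathway genes named are at most 4 called per list by size of change. Genes like Ghr or Socs2 are the 5 closest. Members and lists were chosen with earlier results of these data known. The interaction of age with sex was added after the data were seen. Alternatives were a pseudocount of 5, no filter, equal totals, quantile normalization, array weights, other model terms, single batches, males, fewer groups, a replicate block and leaving out each library. Some genes of the lists are not reported by name here.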

Additional observations from a re-analysis of the deposited data

Results flagged for a closer look

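Of 30 sets of 5 or 6 libraries examined for 10 genes in 3 groups, 2 had a library far from the rest, and chance alone gives about 1 in 20. Stat5a in the transgenic livers was 399.7 normalized counts in library 1, a male of batch A, while the others lay at or below 228.4. Igf1 in the young wild-type livers was 11388 in library 1, also a male of batch A, while the others lay at or above 15513.

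The fold changes of Socs2 and Prlr with the transgene were flagged as differing between groups of libraries. For Socs2 the log2 fold change in batch B minus that in batch A was -3.864. The limma interaction test by batch called 0.658% of all genes. The Socs2 call was lost without the filter on low values and with quantile normalization. For Prlr the log2 fold change in males minus that in females was 4.348, with 1 transgenic female and so no replicate on that side.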

How the results depend on the processing

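Of the alternatives run, leaving out any 1 library left 2 to 4 members called with the transgene, 0 with age and 1 to 3 between transgenic and old livers. The call of Ghr with the transgene was lost in batch B alone. Counts that moved by over 1.5 times were these; the cause was not tested. With the transgene 0 members were called in batch B alone, and with age 1 in the authors' deposited table. Between transgenic and old livers 0 were called in males only, in batch B alone, with only the 2 groups compared and with the replicate block. For the transgene by batch interaction 0 were called without the filter and with quantile normalization.

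Of the 80 other pathway genes, 25 were called with the transgene, 11 without batch and sex terms, 8 in batch A alone, 8 in batch B alone and 16 to 24 with a library left out, the lowest without young wild-type library 6. With age 1 was called, 2 with array weights, 9 in the authors' deposited table, 0 to 3 with a library left out, and 0 without batch and sex terms, in males only, in batch B alone, with only the 2 groups compared and with the replicate block. Between transgenic and old livers 2 were called, 4 with quantile normalization, 11 with array weights, 4 in males only, 1 to 7 with a library left out, and 1 without the filter, without batch and sex terms, in batch B alone and with only the 2 groups compared.

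Log2 fold changes of members that changed sign had not passed the test. With the transgene these were Jak2 (0.036), Socs2 (-1.04) and Cish (-1.40) in batch B alone, Stat5a (-0.49) and Prlr (-0.49) in batch A alone, Stat5a with a library left out (-0.069 to 0.38), and Cish with a pseudocount of 5 (-0.00695), with array weights (-0.056), in males only (-0.092) and with a library left out (-0.35 to 0.38). With age they were Jak2 in batch A alone (-0.089), Socs2 (-0.59), Cish (-1.11), Igf1 (-0.26) and Igfals (-0.012) in batch B alone, Socs2 (-0.495 to 0.88) and Cish (-0.48 to 0.83) with a library left out, and Stat5b with equal totals (0.13), with quantile normalization (0.037), in males only (0.29), in batch B alone (0.44), with only the 2 groups compared (0.019), with a library left out (-0.13 to 0.12) and in the authors' deposited table (0.017). Between transgenic and old livers they were Stat5a in batch B alone (0.24), Stat5b in males only (-0.048) and in batch B alone (-0.0092), Socs2 in males only (-0.74), in batch B alone (-0.45) and with a library left out (-0.20 to 1.55, the lowest without the transgenic female), Cish with a library left out (-0.75 to 0.50), Socs3 in males only (-0.11) and Prlr with a library left out (-1.04 to 0.053, the highest without the transgenic female).

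Whether replicate numbers pair the libraries was not settled. With group, batch and sex fitted out, correlations of the 16 same-numbered pairs ran from -0.32 to 0.38, and 5 of 17 libraries correlated best with their own number. Library 4 is of batch A in young wild type and of batch B in the other groups. Library 1 is female among the old livers and male in the other groups. The correlations alone cannot decide whether the remaining numbers mark pairs. With the replicate block 3 members were called with the transgene (Igfals, Socs3 and Ghr), 0 with age and 0 between transgenic and old livers. Depth is unknown, which leaves counting error unmeasured.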
